A study of Mus musculus with 48 samples.

Results

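The mitochondrial ribosomal proteins, those named Mrpl for the large subunit and Mrps for the small subunit of the mitochondrial ribosome, were followed in subcutaneous white adipose tissue (sWAT) of mice on 2 feeding schedules. They were taken from the count table as the protein-coding genes whose symbol begins with Mrpl or Mrps and a digit, and were 78 of the 54532 genes listed. The mice were C57BL/6 by the labels and C57BL/6J by the study, 8 months of age, without a genetic change given in the labels, and were fed either ad-lib (AL) or twice-a-night (TAN), the second with 2 meals in the dark phase. The comparison asks how transcript levels in fat over the day differ between the schedules. By the study the mice were on regular chow and TAN mice ate modestly less, so meal timing and intake cannot be told apart here. Inguinal fat was collected at 8AM, 12PM, 4PM, 8PM, 12AM and 4AM, with 4 libraries of each diet at each time point and 48 in all. The study describes the mice as male and the material as the whole fat pad, whereas the series design text names the stromal vascular fraction. Poly-A RNA was sequenced, and total counts per library ranged from 15636378 to 29913310 with a median of 20882118.

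The mitochondrial ribosome sits on the inner membrane and translates the few mRNAs of mitochondrial DNA, which encode membrane subunits of complexes I, III and IV and of ATP synthase. Its RNAs come from mitochondrial DNA, whereas all its proteins are encoded in the nucleus, made in the cytosol and imported, so that both genomes have to be matched for respiration. Some of its proteins have bacterial relatives and others are found in mitochondria only, many of the latter covering the surface of the particle. In adipose tissue the mitochondria serve lipid synthesis and oxidation, and their content rises when white fat takes on brown-fat features.

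The labelled tissue was checked with its markers. The mean log2 CPM (counts scaled to the library total and by TMM composition factors) of 8 adipocyte markers, such as Adipoq and Plin1, was 8.96 to 12.1 in the 48 libraries, so that adipocyte RNA was present in every library. The mean log2 CPM of 12 lymphocyte markers, such as Cd3e, ranged from -0.12 to 7.86 and was uneven over the groups. Both ranges are given beside the results that they move with. The same 48 libraries are listed with FPKM values given with the study, under the same animal names but with time labels 12 h apart in all 48 cases, as found by matching 942 genes. In the count table the clock gene Arntl averaged 46.0 ± 4.6 CPM (SD, n = 4) in TAN mice at 8AM and 4.17 ± 2.3 at 4PM, and the clock output gene Dbp 7.85 ± 1.7 and 154 ± 58. All times below are those of the sample labels.

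Nuclear genes for mitochondrial proteins are known to be read by ETS-family factors such as GABPA, by NRF1 and by YY1, and the start regions of the mitoribosomal genes were searched for their core letters. RefSeq start windows (GRCm38.p6, 250 bases before to 50 after the start) were held for 69 of the 78 genes. The ETS core CCGGAAG, on either strand, was present in 26 of the 69 (37.7%), beside 9.93% of the 27025 genes with a window. The NRF1 core GCATGCG was present in 11.6% beside 4.01%, the YY1 core GATGGCG in 11.6% beside 4.04%, and the E-box CACGTG of clock factors in 7.25% beside 8.09%. Forward and reverse NRF1 letters can overlap each other. The 3 sequences below are the 250 bases before the start of the members with the largest fold change at 4PM among those called there that have 1 window, ETS letters in it and no annotated exon of their own gene in it. They show how close to the start these letters lie, which are in capitals (CTTCCGG on the reverse strand), and each is given 5′ to 3′ on the strand of its gene.
Mrps22 (chr9:98601680-98601929, minus strand): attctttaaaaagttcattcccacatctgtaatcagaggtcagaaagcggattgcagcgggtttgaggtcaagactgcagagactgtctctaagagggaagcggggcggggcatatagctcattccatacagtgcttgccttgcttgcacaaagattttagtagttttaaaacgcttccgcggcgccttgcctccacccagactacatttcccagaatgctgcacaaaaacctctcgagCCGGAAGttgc
Mrpl58 (chr11:115403502-115403751, plus strand): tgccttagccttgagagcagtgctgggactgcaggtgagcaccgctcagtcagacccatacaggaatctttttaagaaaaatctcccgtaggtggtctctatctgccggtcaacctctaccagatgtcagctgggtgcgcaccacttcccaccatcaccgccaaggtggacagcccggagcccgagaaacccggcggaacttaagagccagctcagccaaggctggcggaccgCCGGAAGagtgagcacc
Mrps27 (chr13:99344536-99344785, plus strand): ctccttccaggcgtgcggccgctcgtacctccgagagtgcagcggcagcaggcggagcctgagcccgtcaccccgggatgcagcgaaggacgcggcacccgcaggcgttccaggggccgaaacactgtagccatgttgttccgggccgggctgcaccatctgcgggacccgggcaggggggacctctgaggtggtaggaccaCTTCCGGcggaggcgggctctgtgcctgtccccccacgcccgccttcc
The median log2 fold change of TAN against ad-lib at 4PM was 0.70 in the 25 tested members with ETS letters and 0.75 in the 43 without them. The letters are a description of the windows and not a measured binding site.

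Of the 78 members, 77 passed the filter on low counts that left 19977 genes for the tests. The exception was Mrpl53, a large-subunit protein, with 0 counts in every library, which allows up to 3 counts in each (for counting error only). Annotated exons of other genes cover 88.0% of its exon bases, so that reads from this locus could be assigned to another gene. The file's coordinates of 73 members are those of GENCODE M21 on GRCm38, and 18 members share at least 10% of their exon bases with another gene. Among the named members this touches Mrps34 (77.8%, with Nme3 on the same strand and Mapk8ip3 on the other), Mrps25 (69.8%, with Nr2c2), Mrpl19 (36.0%, with Gcfc2), Mrps18b (30.5%), Mrpl24 (26.3%), Mrps27 and Mrpl47 (24.2% each), Mrps18c (23.2%) and Mrps6 (19.9%, with Slc5a3 on the same strand). It also touches Mrpl10 (14.1%), Mrpl12 (13.1%), Mrps7 (11.9%) and Mrpl14 (11.2%). The strand setting of the counting is not given in the sources used here, so the values of these genes are uncertain by reads of their partners. Pseudogenes of Mrpl48, Mrpl23 and Mrps36 held 0 to 12.8 counts per library on average.

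The levels of the members are compared per kb of annotated exon length. The small-subunit protein Mrps21 had 91.6 CPM per kb of gene length, followed by the large-subunit proteins Mrpl34 with 82.2 and Mrpl27, which reaches the peptidyl transferase centre, with 50.9 CPM per kb. The lowest tested members were Mrpl47 with 4.92, Mrps25 with 4.71 and Mrpl19 with 4.61 CPM per kb, genes of 4419, 6576 and 5450 annotated exon bases. The members were also compared in how they moved together. The median Pearson correlation of log2 CPM between 2 members over the 48 libraries was 0.74 over 2926 pairs (range 0.04 to 0.95), and 0.66 for deviations from the 12 group means. Mrpl19, Mrps9 and Mrps18b had the lowest mean correlation with the other members (0.44, 0.46 and 0.48). These correlations share libraries and scaling and are a description.

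At 4PM the mitochondrial ribosomal proteins were higher in TAN mice as a group. The edgeR quasi-likelihood test called 54 of the 77 tested members higher and 0 lower at a Benjamini-Hochberg adjusted p under 0.05, beside 6.54% of all genes called higher and 8.77% called lower. Of the members, 76 had a fold change above 0, with a median log2 fold change of 0.74 beside -0.09 over all genes tested. Above a log2 fold change of 1 were 13 of the called members, beside 2.93% of all genes. All 4 TAN libraries lay above all 4 ad-lib libraries in 59 members, beside 12.8% of all genes. Both subunits took part, with 34 of 50 tested large-subunit proteins called higher (median 0.69) and 19 of 26 small-subunit proteins (median 0.80). Of the proteins with bacterial relatives 34 of 47 were called (median 0.74), and of those specific to mitochondria 19 of 29 (median 0.68). The difference between these classes was not tested. The called members ranged from 0.45 for Mrpl45 to 1.38 for Mrps6 in log2 fold change, and the 23 that were not called from -0.0015 for Mrpl19 to 0.75 for Mrps25. Mrpl19 had 20.6, 20.8, 22.9 and 18.3 CPM in ad-lib and 25.5, 17.4, 21.1 and 18.5 CPM in TAN libraries, with full overlap of the groups. The 3 members with the highest level per length, Mrps21, Mrpl34 and Mrpl27, were all among the 13 above 1.

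**Figure D1:**
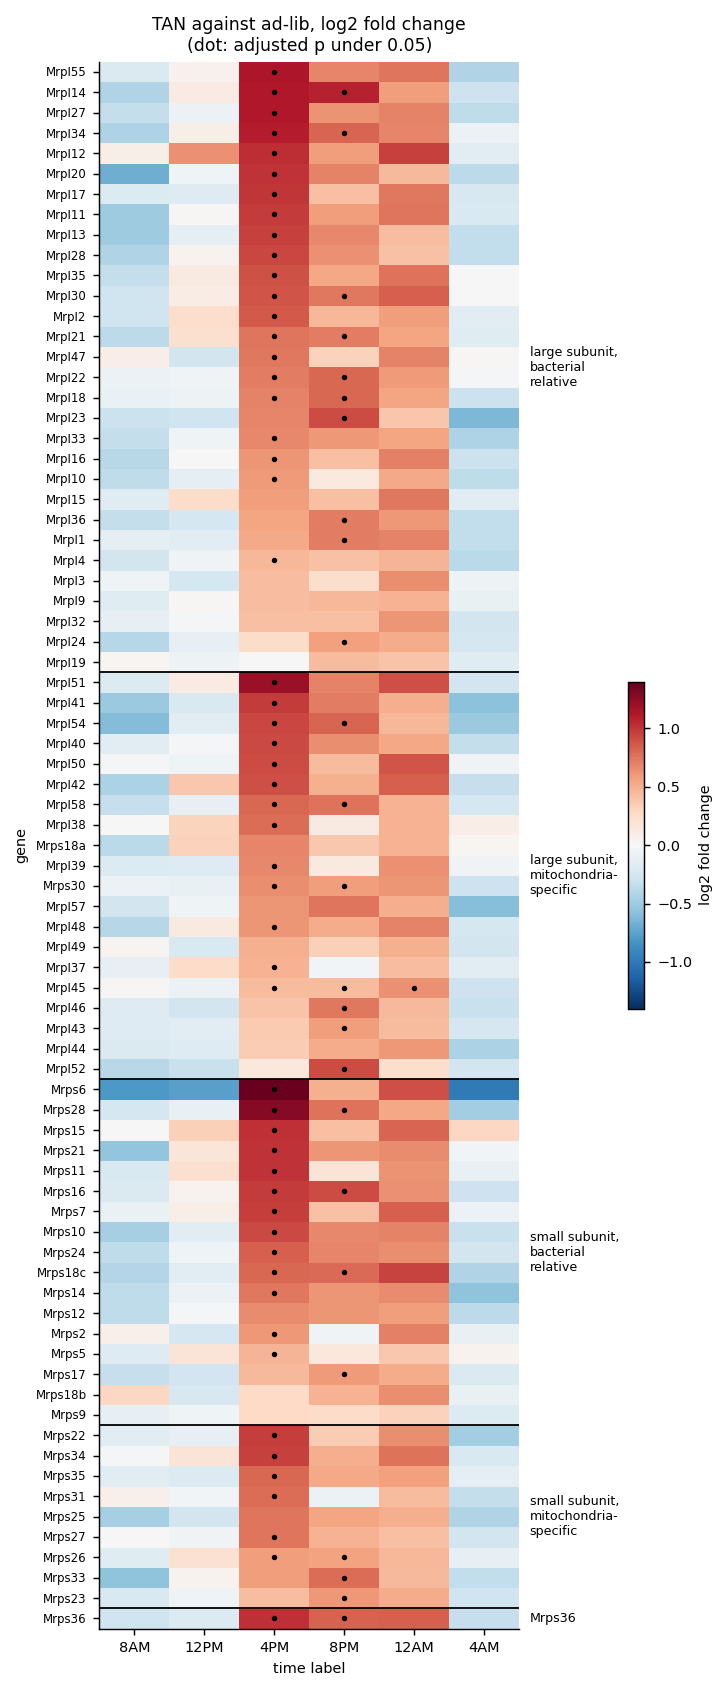
Log2 fold change of TAN against ad-lib (colour) for each of the 77 tested mitoribosomal genes (rows, ordered within class by the fold at 4PM) at the 6 time labels (columns), with a dot where the adjusted p was under 0.05. There are 54 dots at 4PM, 25 at 8PM and 1 at 12AM, and the columns of 8AM and 4AM are mostly pale blue.

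The largest fold at 4PM was that of Mrps6 (chr16:92058270-92112227, plus strand), a small-subunit protein related to bacterial S6. It had 40.8, 36.4, 23.8 and 31.01 CPM in the ad-lib libraries and 136, 77.2, 88.6 and 41.6 CPM in the TAN libraries, a log2 fold change of 1.38 ± 0.39 (SE, adjusted p = 0.0207). TAN replicate 4 lay only just above the highest ad-lib library, and its partner gene on the same strand limits this value. Mrps28 (chr3:8802146-8923918, minus strand), another small-subunit protein, had 19.0, 25.8, 16.3 and 17.1 CPM in ad-lib and 59.0, 35.4, 57.2 and 37.9 CPM in TAN libraries (log2 fold change 1.28 ± 0.26, adjusted p = 0.00705). Here each TAN library exceeded every ad-lib library. Mrpl51 (chr6:125191801-125196269, plus strand), a large-subunit protein specific to mitochondria, had 53.4, 56.4, 37.5 and 39.5 CPM against 126, 82.9, 126 and 95.2 CPM (1.20 ± 0.28, adjusted p = 0.00933). Mrpl55 (chr11:59202486-59206134, plus strand), also of the large subunit, had 23.1, 26.6, 14.3 and 16.1 CPM against 40.2, 35.2, 55.9 and 44.6 CPM (1.13 ± 0.27, adjusted p = 0.0101). The groups did not overlap in either gene.

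Members with known roles were named whatever their values. The stalk of the large subunit, which recruits translation factors, is built on Mrpl10, Mrpl11 and Mrpl12, and all 3 were called higher at 4PM, with log2 fold changes of 0.59 ± 0.19, 0.98 ± 0.26 and 1.03 ± 0.28 (adjusted p = 0.0333, 0.0153 and 0.0168). Mrpl12, which is also known to bind the mitochondrial RNA polymerase, had 29.4, 33.4, 27.1 and 30.002 CPM in ad-lib and 44.0, 61.9, 72.3 and 66.5 CPM in TAN libraries. The TAN libraries stood apart from a narrow ad-lib group. Mrpl58, a peptidyl-tRNA hydrolase that became part of the large subunit, had a log2 fold change of 0.80 ± 0.19 (adjusted p = 0.0112). Mrpl3 and Mrpl44, large-subunit proteins known from inherited heart disease, did not pass (0.44 ± 0.17 and 0.36 ± 0.19, adjusted p = 0.0698 and 0.186).

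In the small subunit, Mrps2, Mrps7, Mrps16, Mrps22 and Mrps34, whose loss is known to impair mitochondrial translation in patients, were called higher at 4PM. Their log2 fold changes were 0.61 ± 0.17, 0.96 ± 0.21, 0.98 ± 0.24, 0.97 ± 0.29 and 0.95 ± 0.32, with adjusted p = 0.0183, 0.00818, 0.0115, 0.0271 and 0.0395. Mrps34 was the least even of them, with 21.7, 28.4, 21.9 and 19.4 CPM in ad-lib and 18.9, 49.98, 69.9 and 38.2 CPM in TAN libraries. TAN replicate 1 thus had the lowest value of the 8 libraries. Mrps12, a protein of the decoding centre, did not pass (0.66 ± 0.27, adjusted p = 0.0864). Mrps30 and Mrps18a, which are placed in the large subunit in spite of their names, had log2 fold changes of 0.65 ± 0.19 (adjusted p = 0.0217) and 0.68 ± 0.26 (adjusted p = 0.063). Mrps36, now known as a component of the 2-oxoglutarate dehydrogenase complex, was called with 14.3, 14.8, 16.03 and 14.5 CPM against 30.6, 27.9, 37.0 and 25.8 CPM (1.02 ± 0.26, adjusted p = 0.0135).

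Other measures of the libraries moved with this result at 4PM. The lymphocyte markers were at 6.52 to 7.32 mean log2 CPM in the ad-lib libraries and at -0.12 to 4.999 in the TAN libraries, all 12 with a negative fold change and 4 called lower, and the adipocyte markers at 10.1 to 10.9 and 11.5 to 11.8. Summed over the 12 markers this was 1311 to 2267 CPM against 12.9 to 452 CPM, and none of them was at 0 in every library. Of the 8 adipocyte markers 2 were called higher at 4PM (median log2 fold change 1.16), and all 8 had a fold change above 0. At 4PM 3 of 5 tested markers of brown or beige fat were called higher (median 2.43). Called lower were 2 of 4 mammary epithelium, 1 of 6 macrophage and 1 of 5 endothelial markers, while 0 of 11 muscle, 0 of 6 stroma and 0 of 5 erythrocyte markers were called. In bulk tissue, fewer cells of a type and less RNA per cell cannot be told apart. Rows of the biotype TEC, a GENCODE class of transcripts of unsettled status, held 0.088% to 0.11% of counts in ad-lib and 0.033% to 0.085% in TAN libraries. With the lymphocyte markers as a covariate 0 members were called (46 at an unadjusted p under 0.05, median log2 fold change 0.56, 76 above 0), and with the TEC share 0 (32, median 0.33, 73 above 0), as an alternative added after the data were seen. The adipocyte markers were not run as a covariate. Library totals in place of TMM factors called 26, with a median of 0.39 beside -0.42 over all genes. The members lay above the median of all genes by 0.83 with TMM factors and by 0.81 with library totals. A change of scaling moves all genes by about the same amount, so this difference cannot show whether the calls depend on scaling. The count fell to 9 and 28 without ad-lib replicates 3 and 4, and to 19 and 30 without TAN replicates 1 and 3. The part of these measures in the result was not tested.

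At 8PM, 25 members were called higher and 0 lower, beside 3.76% and 7.91% of all genes. The median log2 fold change was 0.59 beside -0.10 over all genes, and 74 of the 77 had a fold change above 0. The groups did not overlap, with TAN above, in 34 members, beside 4.55% of all genes. Called were 17 of 50 large-subunit and 7 of 26 small-subunit proteins. Of all members, 15 were called at both 4PM and 8PM, 39 at 4PM and not 8PM, and 10 at 8PM and not 4PM. The overlap was not counted over all genes, and no persistence is read from it. Mrpl14 (chr17:45686322-45698495, plus strand), a conserved large-subunit protein at the face between the subunits, was the 1 member above a log2 fold change of 1, a size passed by 1.19% of all genes. It had 23.6, 29.6, 23.7 and 35.8 CPM in ad-lib and 49.5, 64.9, 52.8 and 70.0 CPM in TAN libraries (1.07 ± 0.28, adjusted p = 0.0142). The lowest TAN library was well above the highest ad-lib library. The 25 called members ranged from 0.44 for Mrpl45 to 1.07 in log2 fold change, and the other 52 from -0.08 for Mrps31 to 0.74 for Mrpl57.

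Mrps16, Mrpl52 and Mrpl23 came next at 8PM. Mrps16 (chr14:20389304-20393634, minus strand) had 36.6, 41.5, 36.3 and 38.7 CPM in ad-lib and 100, 63.1, 61.4 and 64.9 CPM in TAN libraries (0.92 ± 0.24, adjusted p = 0.0139), so that TAN replicate 1 stood apart from 3 close values. Mrpl52 (chr14:54426909-54429756, plus strand), specific to mitochondria, had 48.3, 39.9, 48.05 and 33.4 CPM against 104, 105, 55.9 and 55.6 CPM (0.92 ± 0.27, adjusted p = 0.0273). It was high in TAN replicates 1 and 2, and its fold change at 4PM was 0.14 ± 0.27 (adjusted p = 0.758). Mrpl23 (chr7:142532686-142540747, plus strand), which sits at the exit of the peptide tunnel, had 33.7, 43.7, 42.4 and 36.4 CPM against 81.3, 84.4, 65.0 and 63.3 CPM (0.91 ± 0.25, adjusted p = 0.0172). Of the members with known roles, Mrpl58 and Mrps30 were also called at 8PM (0.76 ± 0.19 and 0.59 ± 0.19, adjusted p = 0.0119 and 0.0365). So was Mrps36, which is counted with neither subunit. Mrpl10 and Mrps2 had log2 fold changes of 0.14 ± 0.19 and -0.05 ± 0.17 there (adjusted p = 0.697 and 0.894).

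At 8PM, TAN replicates 1 and 2 had lymphocyte markers of 7.77 and 7.86 mean log2 CPM, the highest of the 48 libraries, and adipocyte markers of 9.52 and 8.96, the lowest. The mean log2 CPM over the 77 members was 5.601 and 5.561 in these libraries. It was 5.73 and 6.03 in TAN replicates 3 and 4 and 4.99 to 5.41 in the ad-lib libraries. TAN replicates 3 and 4 had lymphocyte markers of 6.39 and 1.83. Their adipocyte markers were at 11.49 and 12.14, the second being the highest of the 48 libraries. Adipocyte markers were at 10.006 to 11.28 in the ad-lib libraries at 8PM. All 8 adipocyte markers had a fold change above 0 there (median 0.501, 0 called). Without replicates 1 and 2, an alternative added after the data were seen, 24 members were called at 8PM (12 shared with the 25) with a median of 0.72. With the lymphocyte covariate 31 were called. At 8PM 3 of 5 endothelial markers were called lower (all 5 with a negative fold change, median -0.77), and so were 1 of 6 stroma and 1 of 6 macrophage markers. TEC rows held 0.081% to 0.10% of counts in ad-lib and 0.029% to 0.039% in TAN libraries, and with the TEC share as a covariate 0 members were called (2 at an unadjusted p under 0.05), 27 with a fold change above 0 and a median of -0.08. A separate fit of the 8 libraries called 0 (46 at an unadjusted p under 0.05), library totals 7 and DESeq2 39. Without ad-lib replicates 1, 2 and 3 the count was 5, 9 and 5, and without TAN replicate 1 it was 10.

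At 12AM the test called 1 member. All 77 fold changes were above 0, with a median of 0.60 beside -0.14 over all genes, and 67 had an unadjusted p under 0.05, as had 17.5% of all genes. The called member was Mrpl45 (chr11:97315716-97329920, plus strand), which anchors the ribosome to the inner membrane, where 0.125% of all genes were called higher and 0.025% lower. It had 49.4, 50.4, 40.9 and 46.5 CPM in ad-lib and 59.5, 83.2, 81.9 and 67.6 CPM in TAN libraries (0.64 ± 0.14, adjusted p = 0.0371). Mrpl45 was also called at 4PM and 8PM, with log2 fold changes of 0.45 ± 0.14 and 0.44 ± 0.14 (adjusted p = 0.0322 and 0.0378). The groups did not overlap in 23 members, beside 3.59% of all genes. TAN replicate 1 had the lowest mean level of its group, 5.49 against 5.82 to 6.21 mean log2 CPM, with lymphocyte markers of 7.24 against 0.29 to 5.14. The 8 adipocyte markers all had a fold change above 0 at 12AM (median 0.65, 0 called, 1 at an unadjusted p under 0.05), with levels of 10.9 to 11.1 in ad-lib and 11.1 to 12.0 mean log2 CPM in TAN libraries. TEC rows held 0.066% to 0.11% of counts in ad-lib and 0.034% to 0.067% in TAN libraries. The part of these measures in the result was not tested. Without TAN replicate 1, 40 members were called. The count was 2 without ad-lib replicate 2 and 0 without any other library of 12AM, 0 under library totals, and 21 with DESeq2.

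At the other 3 time points no member passed. At 8AM the median log2 fold change was -0.21, and 0 members were called in either direction, beside 0.01% of all genes higher and 0.00501% lower. An unadjusted p under 0.05 was reached by 8 of the 77 members, all with a fold change below 0, and by 6.58% of all genes. The lowest p were those of Mrpl24, with 75.8, 54.4, 66.7 and 77.7 CPM in ad-lib and 59.3, 54.6, 49.3 and 44.6 CPM in TAN libraries, and of Mrpl54 (log2 fold changes -0.40 ± 0.16 and -0.61 ± 0.26, adjusted p = 0.682 and 0.697). At 12PM the median was -0.06 with 0 called either way (1 at an unadjusted p under 0.05, a level reached by 7.37% of all genes), beside 0.0851% and 0.00501% of all genes. Mrpl12 and Mrps6 had the lowest p there (0.64 ± 0.28 and -0.76 ± 0.39, adjusted p = 0.61 and 0.697). At 4AM the median was -0.26 with 0 called (8 at an unadjusted p under 0.05, a level reached by 2.64% of all genes), and 0% of all genes were called higher and 0% lower. Mrps6 had 33.9, 68.4, 94.5 and 58.0 CPM in ad-lib and 40.6, 29.0, 26.8 and 31.5 CPM in TAN libraries (-0.99 ± 0.39), and Mrpl23 a log2 fold change of -0.63 ± 0.25. DESeq2 and limma voom also called 0 members at these 3 time points.

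**Figure D2:**
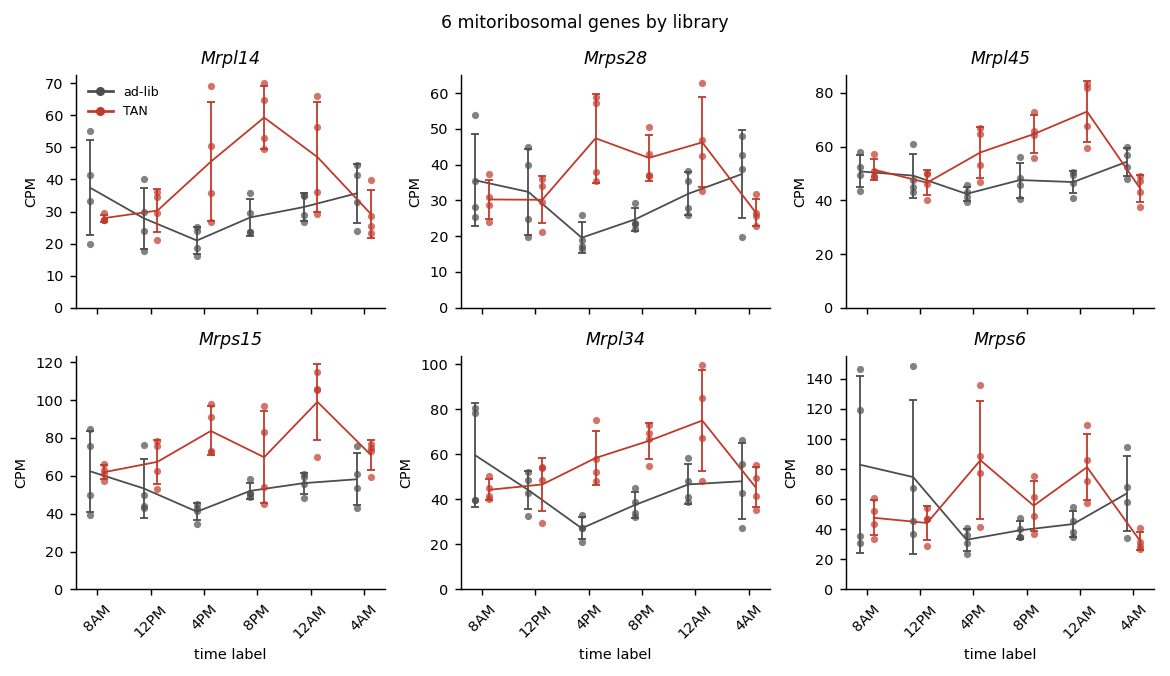
CPM (vertical axes, from 0) of 6 mitoribosomal genes in each library (points) by time label (horizontal axes) for ad-lib (grey) and TAN (red) mice, with group means joined by lines and bars of 1 SD (n = 4). The TAN mean lies above the ad-lib mean from 4PM to 12AM in all 6 genes, and for Mrps6 it lies below at 8AM, 12PM and 4AM.

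Averaged over the 6 time points, 14 members were called higher under TAN and 0 lower, beside 2.68% and 2.74% of all genes, and all 77 fitted means were above 0 (median 0.22 beside -0.08). The lowest p were those of Mrps15, Mrpl12 and Mrps7, with log2 fold changes of 0.48 ± 0.09, 0.52 ± 0.11 and 0.35 ± 0.09 (adjusted p = 0.00087, 0.0047 and 0.0134). Mrps15, a relative of bacterial S15, had group means of 41.1 to 62.4 CPM in ad-lib and 61.9 to 99.1 CPM in TAN mice. Leaving out libraries singly gave between 5 and 30 calls. It came to 22 to 30 without ad-lib 8AM replicate 4, ad-lib 12PM replicate 1, TAN 8PM replicate 2 or TAN 12AM replicate 1. It came to 5 to 9 without any 1 of 17 libraries, namely ad-lib 8AM replicate 2, 12PM 2 and 4, 4PM 3 and 4, 8PM 1 and 3, 12AM 3 and 4, 4AM 1, and TAN 8AM 1, 12PM 1, 2 and 4, 8PM 4, 12AM 3 and 4AM 4. Without TAN replicates 1 and 2 at 8PM 34 were called, and with the TEC share as a covariate 2. Over the same mean 2 of 5 brown or beige fat markers were called higher (median 1.19), and 1 of 6 macrophage and 1 of 4 mammary epithelium markers lower.

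The TAN effect depended on the time point. The F test of differences between the 6 TAN effects called 47 members, beside 8.98% of all genes, and 60 members had a 24-h harmonic (cosine and sine over the group means) that differed between the diets, beside 20.2%. The lowest p for differing effects were those of Mrps18c, Mrpl58 and Mrpl41 (adjusted p = 0.0123, 0.0123 and 0.0124). With the TEC share as a covariate 0 members were called for differing effects (9 at an unadjusted p under 0.05), with the lymphocyte markers 8, with library totals 10 and with DESeq2 68.

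**Figure D3:**
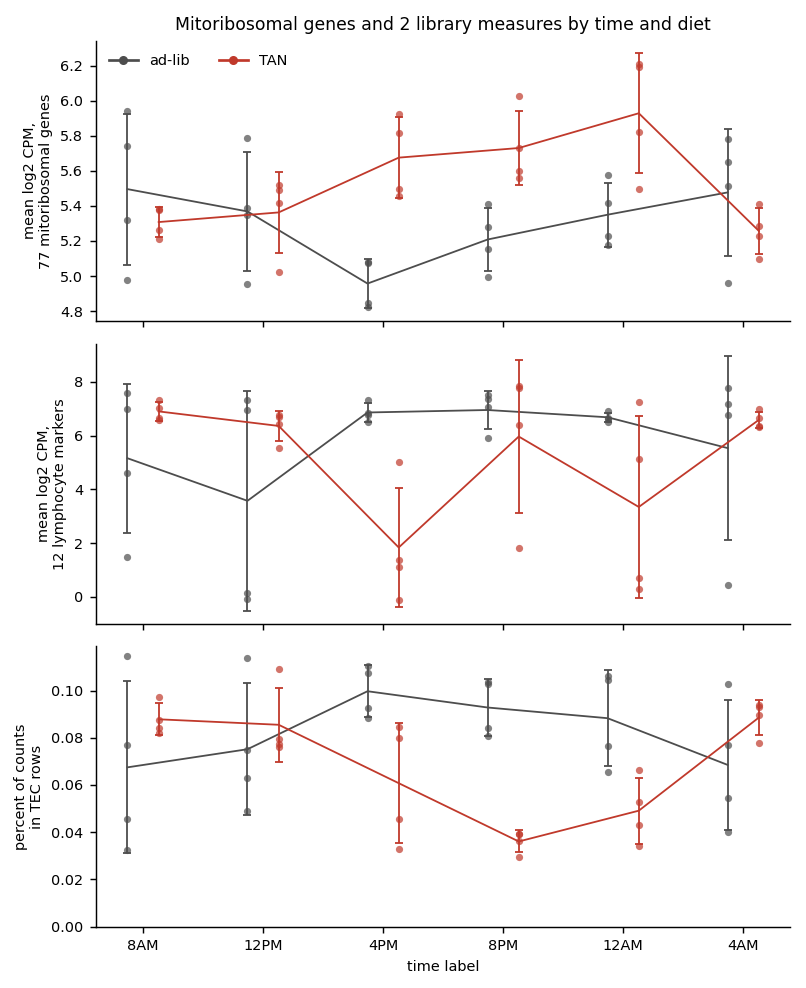
Mean log2 CPM of the 77 tested mitoribosomal genes (top), mean log2 CPM of 12 lymphocyte markers (middle) and percent of counts in TEC rows (bottom) in each library (points) by time label, for ad-lib (grey) and TAN (red) mice, with group means joined by lines and bars of 1 SD (n = 4). The TAN mean of the mitoribosomal genes is 5.68, 5.73 and 5.93 at 4PM, 8PM and 12AM, where the ad-lib mean is 4.96, 5.21 and 5.35.

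In TAN mice many members varied over the day. The F test over the 6 time points called 52 of 77, beside 23% of all genes, and the 24-h harmonic also called 52, beside 19.8%. The fitted peaks of those 52 fell between 19.3 and 22.1 h with a median of 20.4 h on the 24-h clock of the labels, and the peak-to-trough range was 0.47 to 1.16 log2 units with a median of 0.78. By group means, 56 members were highest at 12AM, 18 at 8PM and 3 at 4PM, and 41 were lowest at 4AM and 31 at 8AM. The lowest p were those of Mrpl45, Mrps18c and Mrpl24 (adjusted p = 0.0022, 0.0026 and 0.0026). Mrps18c, a small-subunit relative of bacterial S18, went from 22.9 ± 3.9 CPM (SD, n = 4) at 8AM to 46.2 ± 12 at 12AM and back to 23.97 ± 3.0 at 4AM. The ratio of the highest to the lowest group mean in CPM was 1.24 to 2.68 over the 77 members, with a median of 1.73. The count of 52 became 28 and 30 without TAN 12AM replicates 2 and 3, 22 with library totals, 27 with the lymphocyte covariate and 8 with the TEC share. Of the marker lists, 4 of 5 endothelial, 1 of 12 lymphocyte, 1 of 6 macrophage and 1 of 6 stroma markers were also called over time in TAN mice. From 8AM to 4AM the TAN lymphocyte markers averaged 6.90, 6.36, 1.84, 5.96, 3.34 and 6.58 mean log2 CPM. The adipocyte markers averaged 10.8, 10.9, 11.7, 10.5, 11.6 and 10.8 there. The part of these measures in the variation was not tested.

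In ad-lib mice the F test over time called 0 members, beside 0.0551% of all genes, with 25 at an unadjusted p under 0.05 as had 6.67% of all genes, and DESeq2 and limma voom called 0 as well. The harmonic called 0 of the members, beside 0.0801%, with 46 at an unadjusted p under 0.05 as had 11.4% of all genes. The group means still had an order, with 74 members lowest at 4PM and 41 highest at 8AM and 25 at 4AM. Lymphocyte markers were at 6.52 to 7.32 mean log2 CPM in the ad-lib libraries at 4PM. They were at 1.48 to 7.56 at 8AM and 0.45 to 7.75 at 4AM. Adipocyte markers were at 10.1 to 10.9 at 4PM, 10.1 to 12.0 at 8AM and 10.4 to 11.4 at 4AM. The part of these measures in the order was not tested. Mrpl34, Mrpl42 and Mrpl28 had the lowest p (adjusted p = 0.28, 0.403 and 0.403). Mrpl34 averaged 59.6 ± 23 CPM (SD, n = 4) at 8AM and 27.2 ± 4.8 at 4PM. The ratio of the highest to the lowest group mean was 1.18 to 2.51 with a median of 1.52. The 4 ad-lib libraries at 8AM spread from 4.98 to 5.94 mean log2 CPM over the members, wider than the 4.82 to 5.08 of ad-lib at 4PM. The ad-lib group at 4PM, where the TAN effect had its largest median, held the 2 lowest libraries of all 48 by this mean.

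Other genes of mitochondrial translation were counted in lists by their role. For these lists and those of the next paragraph, 6.54% of all genes were called higher and 8.77% lower at 4PM. At 8PM these shares were 3.76% and 7.91%, and at 12AM 0.125% and 0.025%. Among 5 further proteins of the ribosome, Dap3, Aurkaip1 and Chchd1 were called higher at 4PM and 0 at the other time points (log2 fold changes 0.59 ± 0.14, 0.73 ± 0.25 and 0.99 ± 0.29). Of 12 translation factors 3 were higher at 4PM and 0 lower (median 0.22), the elongation factor Tufm, the recycling factor Mrrf and the release factor Mtrf1 (0.69 ± 0.17, 0.95 ± 0.24 and 1.01 ± 0.32). At 8PM 2 of the 12 were lower, the recycling GTPase Gfm2 (-0.67 ± 0.23) and the GTPase Guf1 (-0.71 ± 0.19). Of 24 genes for assembly and rRNA modification 4 were higher at 4PM (median 0.37), among them the rRNA methyltransferase Mettl15 (1.34 ± 0.29), Mpv17l2 (1.05 ± 0.25) and the GTPase Mtg1 (0.81 ± 0.23). At 8PM 1 of the 24 was higher, the ribosome-binding factor Rbfa (0.54 ± 0.17), and 1 lower, the pseudouridine synthase Trub2 (-1.07 ± 0.32). Of 20 tRNA synthetase and amidotransferase genes, Fars2 was higher and Mars2 lower at 4PM (0.71 ± 0.25 and -0.94 ± 0.23, median of the 20 0.25), and Wars2 lower at 8PM (-0.83 ± 0.26). Of 11 genes for transcription and replication of mitochondrial DNA, such as Polrmt and Tfam, 0 were called at 4PM or 8PM (1 and 0 at an unadjusted p under 0.05), with medians of -0.03 and 0.26. In either direction, 10% of the synthetase list was called at 4PM and 5% at 8PM, and 8.33% of the assembly list at 8PM. Of all genes 15.3% were called at 4PM and 11.7% at 8PM, so these calls are not a result about their lists. Differences between these lists and the members were not tested.

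Among 9 regulators of nuclear genes for mitochondria, Esrra was called higher at 4PM (1.06 ± 0.33), and Gabpb1, a partner of GABPA, and the coactivator Pprc1 were lower (-0.79 ± 0.26 and -1.84 ± 0.60). The coactivator Ppargc1a was lower at 8PM (-1.56 ± 0.49). Complex I subunits encoded in the nucleus were higher at 4PM in 35 of 36 (median 1.15), at 8PM in 9 (median 0.67) and at 12AM in 0 (median 0.80, 34 at an unadjusted p under 0.05). Of the cytosolic ribosomal proteins 2 of 86 tested genes were higher at 4PM (median -0.24), 50 higher at 8PM (median 1.26) and 0 called at 12AM (2 at an unadjusted p under 0.05, median -0.05). The 13 mRNAs of mitochondrial DNA, the templates of the ribosome, had 1 higher at 4PM (median 0.59), 1 lower at 8PM (median -0.36) and 0 called at 12AM (4 at an unadjusted p under 0.05, median 0.82). These transcripts are known to carry short poly-A tails, and what poly-A selection did to their values was not tested. In either direction, 7.69% of these 13 mRNAs were called at 4PM and at 8PM. The share was 2.33% for the cytosolic ribosomal proteins at 4PM and 11.1% for the regulators at 8PM. Of all genes 15.3% were called at 4PM and 11.7% at 8PM, so the calls with these shares are not a result about their lists.

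**Figure D4:**
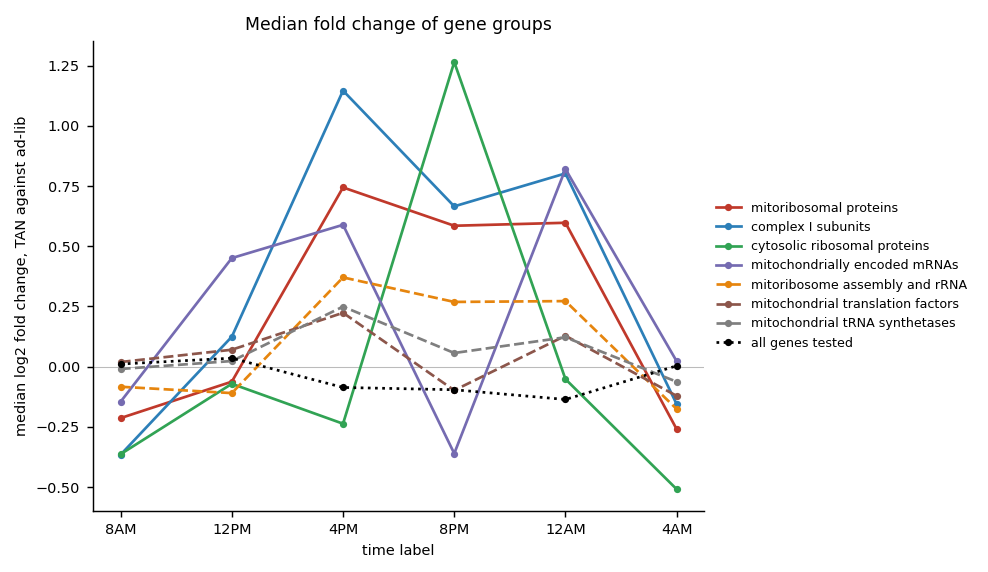
Median log2 fold change of TAN against ad-lib (vertical axis) by time label (horizontal axis) for the mitoribosomal proteins, 6 other gene groups and all genes tested (dotted), 1 line per group. The mitoribosomal median is 0.74 at 4PM, 0.59 at 8PM and 0.60 at 12AM, while that of the cytosolic ribosomal proteins is above 0 at 8PM only.

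The level of the members was set beside other measures of the same libraries. Over the 48 libraries, their mean log2 CPM had a Pearson correlation of -0.87 with the percent of counts in TEC rows (Spearman -0.90, -0.87 without the 2 libraries farthest from the median). Within the 24 ad-lib libraries the correlation was -0.88 and within the 24 TAN libraries -0.85. It was -0.53 with the lymphocyte markers (Spearman -0.47, -0.60 without 2 libraries) and 0.62 with the adipocyte markers (Spearman 0.70, 0.82 without 2 libraries). For deviations from the 12 group means the correlations were -0.82 with TEC, -0.42 with the lymphocyte and 0.63 with the adipocyte markers. With the TMM factor, which itself enters the level, it was -0.94 (Spearman -0.95, -0.90 for deviations from group means). For the members' percent of total counts, on a log2 scale without TMM factors, the correlation with the TEC percent was -0.90 and with the lymphocyte markers -0.38. All of these are shares of the same libraries, and the correlations are a description. The 4 ad-lib libraries with the fewest lymphocyte transcripts had mitoribosomal levels of 5.35 to 5.94 mean log2 CPM, beside 5.46 to 5.93 in the TAN libraries at 4PM. The ad-lib library with the most lymphocyte transcripts (4AM replicate 4) had 5.78. Next in lymphocyte markers came ad-lib 8AM replicate 3, 8PM replicate 3 and 8PM replicate 1, with lower mitoribosomal levels of 5.32, 5.15 and 4.99.

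**Figure D5:**
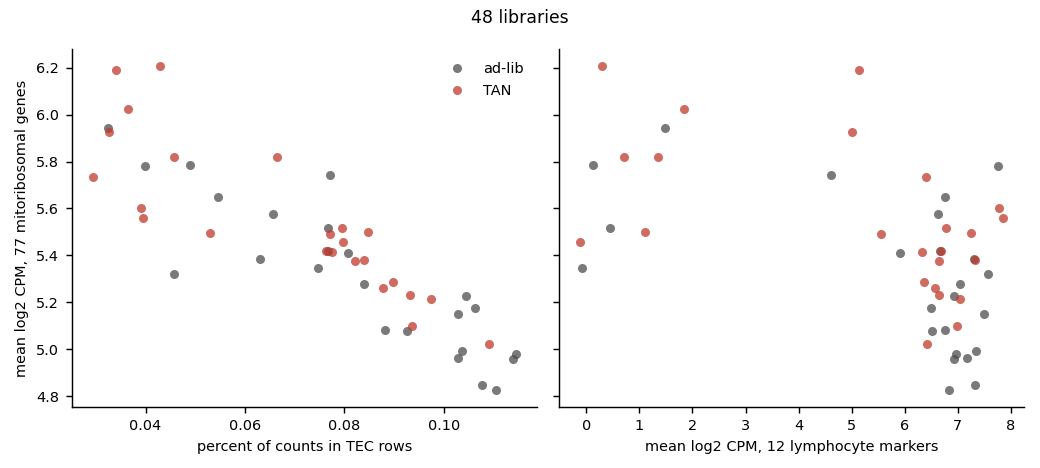
Mean log2 CPM of the 77 tested mitoribosomal genes (vertical axis) in each of the 48 libraries against the percent of counts in TEC rows (left) and the mean log2 CPM of 12 lymphocyte markers (right), for ad-lib (grey) and TAN (red) mice, 1 point per library. The points fall from left to right in the left panel in both diets (r = -0.87 over all), and most libraries of the right panel lie between 5.5 and 8 with a wide spread of mitoribosomal levels.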

How the data were processed

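The members, gene lists and alternatives were chosen with earlier results of these data known. Libraries were grouped by diet and time from the sample labels, and 4 libraries of a group were taken as replicates. Nothing in the labels gives their separate origin beyond the animal names, so p-values measure the spread between these libraries. The authors deposited raw counts per gene without normalization, which are the values used here. The deposited FPKM means of each group were not used. The per-library FPKM values given with the study served only to compare time labels. The submitters' processing notes name TopHat 1.3.3, DESeq2 1.20.0, limma and edgeR and the builds mm9, mm10 and GRCm38 without roles. The counting tool and its strand setting are not given in the sources used here, and the library protocol allows either strand setting.

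CPM values include TMM factors, and a prior count of 2 was added for log2 CPM. The test was edgeR 4.0.16 (R 4.3.3), after filterByExpr at a minimum count of 10, by a robust quasi-likelihood fit of the 48 libraries in 12 groups. Contrasts were TAN minus ad-lib at each time point and for the mean of the 6, F tests for differences among these effects and among the times of a diet, and a 24-h harmonic. P-values were adjusted by Benjamini-Hochberg over all 19977 genes, with a call at 0.05. Total counts of 15636378 to 29913310 per library limit the precision. The model was also run on simulated counts, drawn independently for each gene and without differences in cell content between groups. The members moved together and the cell markers differed between groups, so that run does not bear on the calls here.

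Named members were, at each time point, up to 4 called ones per direction with the largest fold change (2 with the lowest p where none was called), 3 with the lowest p for the mean and for time in each diet, the 3 highest and lowest per length, and 15 with known roles. Lists name at most 3 called genes. Exon overlaps came from GENCODE M21 and start windows from RefSeq. Alternatives were RLE factors, library totals, no filter on low counts, DESeq2 1.42.0, limma voom (limma 3.58.1), a replicate block, marker covariates, a separate fit per time point, a fold threshold and libraries left out in turn. The TEC covariate and the omission of TAN replicates 1 and 2 at 8PM were added after the data were seen.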

Additional observations from a re-analysis of the deposited data

Results flagged for a closer look

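The TAN effect on 47 members differed between the 6 time points by the F test of edgeR, beside 8.98% of all genes. The 24-h harmonic of 60 members differed between the diets, beside 20.2% of all genes. Of the 47, 0 stayed called with the TEC share as a covariate and 8 with the lymphocyte markers. The harmonics were not rerun under the alternatives. The lowest adjusted p for differing effects were 0.0123 for Mrps18c, 0.0123 for Mrpl58 and 0.0124 for Mrpl41. Of the 3, Mrps18c went from a TAN effect of -0.42 at 4AM to 0.94 at 12AM on the log2 scale, Mrpl58 from -0.32 at 8AM to 0.80 at 4PM, and Mrpl41 from -0.57 at 4AM to 0.98 at 4PM.

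In 2 of 42 groups of 4 libraries examined, 1 library lay far from the other 3, and chance alone gives about 1 such group in 20. Mrpl12 in TAN mice at 12PM had 40.8 CPM in replicate 3 and 73.0 to 78.9 in the others. Mrps16 in TAN mice at 8PM had 100 CPM (99.96) in replicate 1 and 61.4 to 64.9 in the others.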

How the results depend on the processing

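No member was called lower, and none over time in ad-lib mice, under any alternative run. Library totals called 26 members at 4PM, 7 at 8PM, 0 at 12AM, 6 for the mean, 10 for differing effects and 22 for time in TAN. No filter on low counts called 32, 6, 0 and 5 at 4PM, 8PM, 12AM and for the mean. DESeq2 called 39 at 8PM, 21 at 12AM and 24 for the mean, and RLE factors 4 at 12AM. The lymphocyte covariate called 0 at 4PM, 0 at 12AM, 8 for differing effects and 27 for time in TAN. The TEC covariate called 0 at 4PM, 8PM and 12AM, 2 for the mean, 0 for differing effects and 8 for time in TAN, and reversed Mrpl23 at 8PM to a log2 fold change of -0.012. Without TAN replicates 1 and 2 at 8PM, 4 were called at 12AM and 34 for the mean. Separate fits called 0 at 8PM and 12AM. A log2 fold change above 1 left 13, 1, 0 and 0. Leaving out 1 library gave 9 to 53 at 4PM, 5 to 19 at 8PM, 0 to 40 at 12AM, 5 to 30 for the mean, 37 to 67 for differing effects and 28 to 73 for time in TAN. The cause of these moves was not tested. Of the 54, 25, 14, 47 and 52 called, 8, 1, 5, 33 and 23 were called in every such fit.

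The replicate block, which rests on a shared number and not on a shown pairing, called 50 members at 4PM, 22 at 8PM, 0 at 12AM (1 without it) and 10 for the mean. The deviations from group means over 5000 genes correlated above 0.1 for 10 of 24 same-numbered comparisons of the diets at a time point (median -0.01, from -0.59 to 0.84), which does not show a pairing.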
